A study of Mus musculus with 12 samples.

Results

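Transcripts of AP-1 and immediate early transcription factors were measured by RNA-seq in wild-type fibroblasts grown from mouse embryos (MEFs) after DNA damage. The genes were chosen by name, as the entries FOS, FOSB, FOSL1, FOSL2, JUN, JUNB, JUND, ATF3 and EGR1, and all 9 were found among 16425 gene entries of the deposited table. The table writes symbols in capitals, and mouse spelling (Fos, Fosb) is used from here on. Of the 12 samples in 4 groups of the series, 6 libraries of 2 groups are described here, 3 per group, and the 6 untreated samples were not analysed here. The sgPVT1 MEFs had been infected with a guide RNA aimed at the place in Pvt1 where the tumour suppressor p53 binds, its p53 response element, and were treated with 0.5 µM doxorubicin for 24 h. The sgTom MEFs carried a non-targeting control guide and had the same treatment. Both groups are thus wild-type and doxorubicin-treated, and doxorubicin is a topoisomerase poison that breaks DNA and so turns on p53. How much of the DNA was edited, and how many embryos or cultures the replicates came from are not given in the sources used here. P-values measure the spread between these libraries, which may be technical.

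AP-1 is a family of paired transcription factors. A Fos protein binds DNA only together with a partner, usually a Jun protein, while Jun proteins can also pair with each other, and the pairs bind short DNA sites of the AP-1 and cAMP-response (CRE) types. Many of the genes are immediate early genes, which are switched on within minutes of growth factors, stress or DNA damage through MAP kinases, without new protein synthesis. In fibroblasts, AP-1 is known for driving cell cycle entry and matrix protease genes.

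The promoters of Fos, Jun and Atf3 are shown because these 3 held a match to a site that the family itself can bind. Windows of 7 of the 9 members were searched, and Fosl1 and Egr1 were not searched. Each line gives the 250 bases before 1 RefSeq start of the gene on the coding strand (GRCm38.p6, the assembly of mm10), at chr12:85473640-85473889 (plus strand) for Fos, chr4:95052223-95052472 (minus strand) for Jun and chr1:191183334-191183583 (minus strand) for Atf3. Capitals mark the matches.
Fos: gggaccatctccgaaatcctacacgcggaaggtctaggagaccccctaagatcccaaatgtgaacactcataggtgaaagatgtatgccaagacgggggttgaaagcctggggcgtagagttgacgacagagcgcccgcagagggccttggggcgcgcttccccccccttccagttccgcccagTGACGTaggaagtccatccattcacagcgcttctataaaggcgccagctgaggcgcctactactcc
Jun: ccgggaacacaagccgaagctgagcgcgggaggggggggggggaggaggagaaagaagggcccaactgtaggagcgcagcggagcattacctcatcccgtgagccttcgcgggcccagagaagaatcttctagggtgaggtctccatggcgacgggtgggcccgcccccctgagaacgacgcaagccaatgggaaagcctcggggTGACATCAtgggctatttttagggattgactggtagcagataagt
Atf3: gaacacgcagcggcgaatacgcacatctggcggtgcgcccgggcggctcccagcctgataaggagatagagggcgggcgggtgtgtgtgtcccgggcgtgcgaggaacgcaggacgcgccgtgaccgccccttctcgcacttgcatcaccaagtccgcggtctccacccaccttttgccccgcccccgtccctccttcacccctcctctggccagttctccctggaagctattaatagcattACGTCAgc
Motifs of 4 kinds were searched on both strands. The AP-1 site TGANTCA was in 6.75% of the 32851 promoter windows of the same length, the CRE core TGACGT in 6.47%, the variant TGACATCA known from the human JUN promoter in 2.93%, and the CArG box, the site of serum response factor, in 1.47%. Fos held TGACGT with its first base 66 bases before the start. Jun held TGACATCA at 45 bases before the start. Atf3 held the CRE core in reverse, as ACGTCA, at 8 bases before the start. The windows of Fosb, Fosl2, Junb and Jund held no match to these motifs. Some windows do not border the GENCODE start of the gene. The Jund window (chr8:70697489-70697738) ends well before that start (70698949). The Fosl2 window (chr5:32136222-32136471) lies past it (32135801), and the Atf3 window lies inside the GENCODE gene. The bases before those GENCODE starts were not searched. These matches are descriptions of sequence and were not tested for binding.

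The libraries held 50091418 to 66132317 reads in genes. Levels are in CPM, the authors' read counts scaled to a common library size. Pvt1, the targeted long noncoding RNA gene, stood at 8.04, 5.93 and 5.40 CPM in sgPVT1 MEFs and at 16.4, 11.7 and 12.1 CPM in sgTom MEFs, in replicate order, so the libraries followed their labels. All 9 listed fibroblast markers were present, with a summed level of 31996 to 33667 CPM in sgPVT1 libraries and 33309 to 34050 CPM in sgTom libraries, led by Fn1, the fibronectin gene. Of 14 macrophage markers, 13 were listed and Aif1 was not, and they summed to 106 to 366 CPM in sgPVT1 libraries and 113 to 229 CPM in sgTom libraries, led by Lyz2. The summed level of endothelial markers (5 of 6 listed, led by Kdr) was 81.9 to 118 CPM in sgPVT1 libraries and 97.9 to 118 CPM in sgTom libraries. Muscle markers (3 of 6 listed, led by Des), epithelial markers (6 of 7 listed, led by Krt19) and neural and glial markers (5 of 6 listed, led by Nes) reached at most 44.5, 100 and 258 CPM in sum in sgPVT1 libraries and 49.0, 92.1 and 253 CPM in sgTom libraries, and Cdh5, Myod1, Myog, Actc1, Krt8 and Sox10 were not listed. In bulk RNA, fewer cells of a type and less RNA per cell cannot be told apart.

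**Figure D1:**
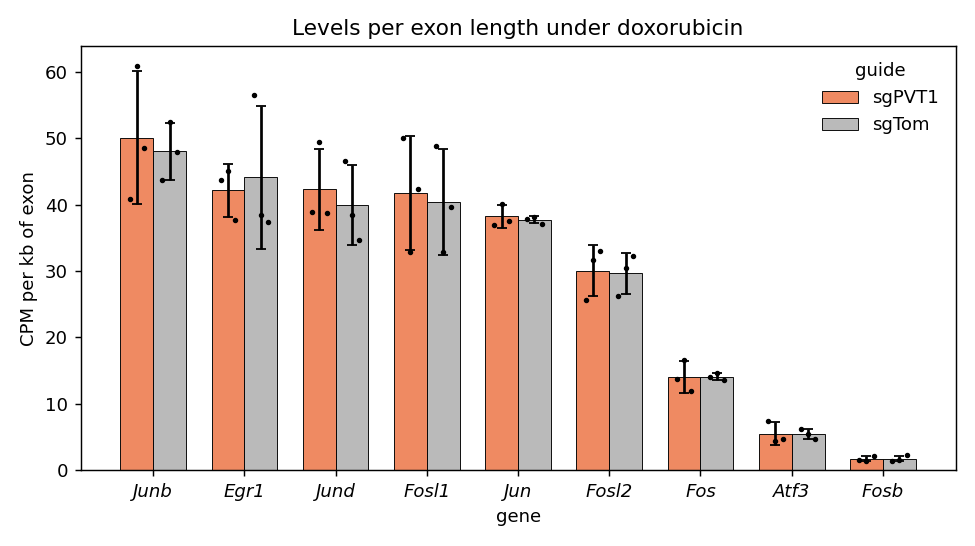
Bars give the mean CPM per kb of exon for each gene, with sgPVT1 left of sgTom, error bars the SD over 3 libraries and dots the libraries. Genes run from the highest to the lowest mean over the 6 libraries, from Junb at 49.1 to Fosb at 1.74 CPM per kb.

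Transcripts of all the AP-1 genes were detected 24 h into doxorubicin, with the Jun genes at similar levels to each other and the Fos genes far apart. Per kb of exon in GENCODE M21, the mean over the 6 libraries was 49.1 CPM for Junb, 43.1 for Egr1, 41.1 for Jund, 41.1 for Fosl1, 38.0 for Jun, 29.9 for Fosl2, 14.1 for Fos, 5.49 for Atf3 and 1.74 for Fosb. Among Junb, Egr1, Jund, Fosl1 and Jun, the ranges over libraries overlapped for each pair but Junb and Jun, where the lowest Junb value (40.9 CPM per kb) lay just above the highest Jun value (40.2). Fosl2 (25.6 to 32.96 CPM per kb) lay below every value of Jun (37.0 to 40.2), although the lowest Fosl1 values overlapped it. Fos (11.9 to 16.6), Atf3 (4.41 to 7.46) and Fosb (1.43 to 2.23 CPM per kb) were each separated from the next gene in every library. The plot of CPM per kb by gene shows this order.

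Within the Fos family, Fosl1 and Fosl2 held most of the transcripts under both guides. Fosl1 made up 47.4% ± 7.55 of the family's summed CPM per kb in sgPVT1 MEFs and 46.8% ± 6.44 in sgTom MEFs (SD, n = 3 each). Fosl2 made up 34.5% ± 5.47 in sgPVT1 MEFs and 34.7% ± 5.01 in sgTom MEFs. Fos, the founding member, made up 16.2% ± 3.52 in sgPVT1 MEFs and 16.5% ± 1.63 in sgTom MEFs. Fosb made up the remaining 1.97% ± 0.376 in sgPVT1 MEFs and 2.04% ± 0.486 in sgTom MEFs. These shares depend on the exon length used, the union of all annotated exons. This length was 6.24 kb for Fosb, 2.35 kb for Fos, 2.03 kb for Fosl1 and 9.68 kb for Fosl2. Before division by length, Fosl2 stood above Fosl1, at a mean of 289 against 83.5 CPM over the 6 libraries. Per kb, their shares lay close in replicate 2, at 38.3% for Fosl2 and 39.8% for Fosl1 in sgPVT1 MEFs. In sgTom MEFs they were 38.4% and 41.3%. The Jun family was more evenly divided, with Junb at 38.1% ± 2.81, Jund at 32.4% ± 1.21 and Jun at 29.5% ± 2.54 in sgPVT1 MEFs, and Junb at 38.3% ± 3.57, Jund at 31.7% ± 4.01 and Jun at 30.03% ± 0.831 in sgTom MEFs. Both families' sums overlapped between the guides, at 82.5 to 90.9 CPM per kb in sgPVT1 libraries and 79.6 to 90.6 in sgTom libraries for Fos genes, and 117 to 150 in sgPVT1 libraries and 120 to 129 in sgTom libraries for Jun genes.

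The guide comparison asked whether AP-1 and immediate early transcripts differ under doxorubicin when the p53 response element of Pvt1 is targeted. None of the 9 genes passed the test for a guide difference. The ratio of the sgPVT1 mean to the sgTom mean lay between 0.955 for Egr1 and 1.06 for Jund. The sgPVT1 and sgTom values of each of the 9 genes overlapped, where 3.61% of all tested genes had no overlap. Of the 9 log2 fold changes, 5 were above and 4 below 0. The median log2 fold change was 0.02 for the 9 genes, and -0.0004 for all 14440 genes tested, of which 49.7% lay higher. Limma without a block called 0 of the 9 genes and 0 of all genes (0% called, with 50 of 14440 genes and 0 of the 9 at an unadjusted p under 0.05). The replicate block, which compares the guides within each replicate number, called 5 of all genes (0.0346%) and 0 of the 9. On the recovered reads, edgeR made 0 calls (0%; unadjusted p under 0.05 in 47 genes) without the block and 5 (0.0346%) with it. DESeq2 called 1 (0.00693%) without the block and 6 (0.0416%) with it. None of these calls was one of the 9. The values by library are in the plot of CPM by guide.

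**Figure D2:**
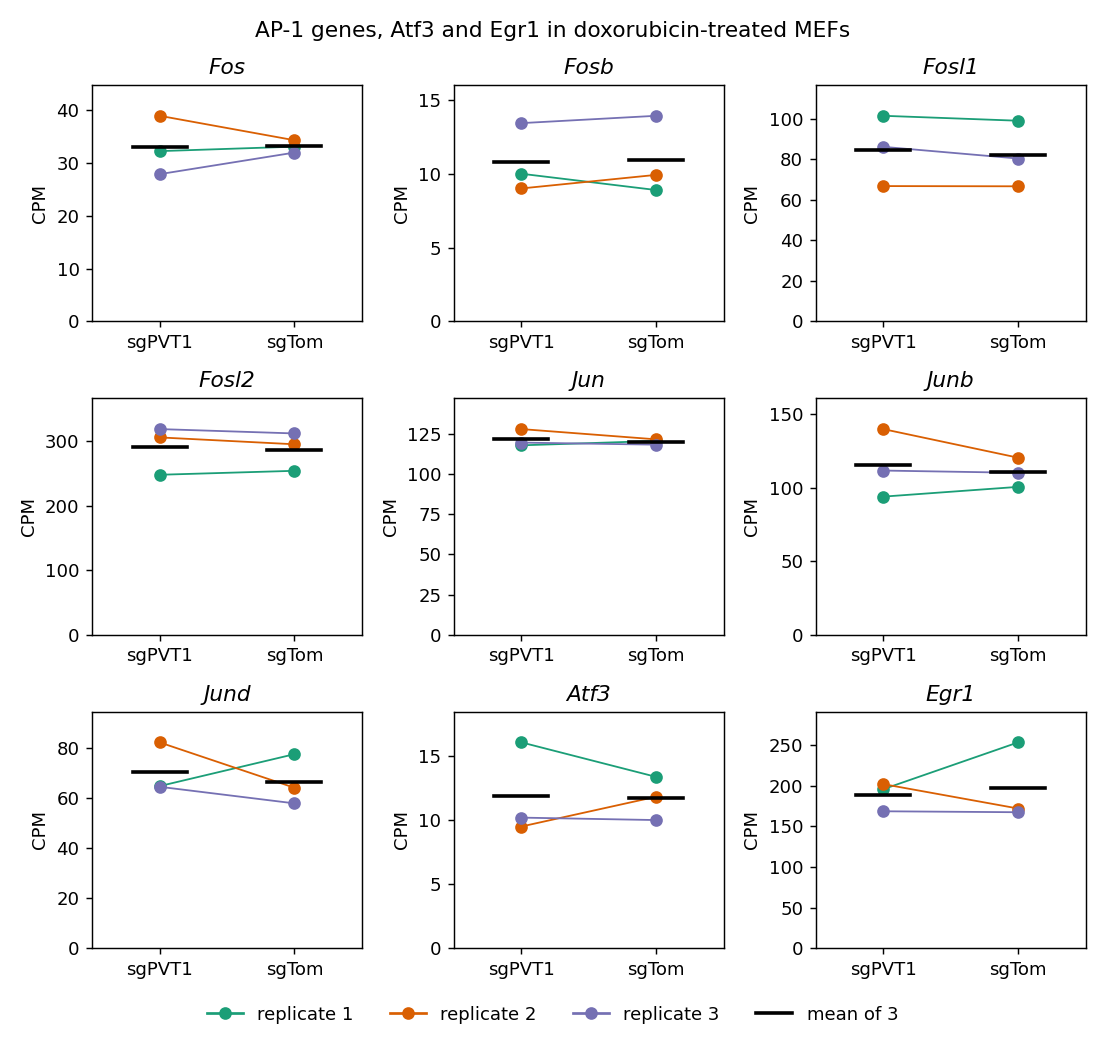
Each panel gives the CPM of 1 gene in the 6 libraries, with sgPVT1 left and sgTom right, lines joining libraries with the same replicate number and black bars the mean of 3. The values of both guides overlap in all 9 panels, the lines of Fosl1 and Fosl2 keep their replicates apart under both guides, and replicate 3 of Fosb lies above the other 2, which cross.

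Fos (ENSMUSG00000021250.13, chr12:85473890-85477273, plus strand, mm10, 4 exons), the classical short-lived partner of Jun, had 32.3, 39.0 and 27.9 CPM in sgPVT1 MEFs and 33.1, 34.4 and 32.0 CPM in sgTom MEFs, in replicate order. The sgTom values lay inside the range of the sgPVT1 values, and the sgPVT1 library was higher in 1 of 3 pairs. The log2 fold change was -0.02 (SE 0.122, limma adjusted p = 1).
Fosb (ENSMUSG00000003545.3, chr7:19302696-19310051, minus strand), whose product is best known from long-lived forms in neurons, had 10.003, 9.01 and 13.4 CPM in sgPVT1 MEFs and 8.90, 9.93 and 13.9 CPM in sgTom MEFs. Replicate 3 was the highest under both guides, and the log2 fold change was -0.01 (SE 0.208). Fosb rested on 503 to 977 reads per library, a counting error of at most 4.46%.
Fosl1 (ENSMUSG00000024912.6, chr19:5447547-5455946, plus strand), which encodes Fra-1, a Fos protein lacking the strong activation domain of Fos, had 102, 66.9 and 86.2 CPM in sgPVT1 MEFs and 99.1, 66.7 and 80.5 CPM in sgTom MEFs. The guides nearly coincided within each number, at 1.02, 1.002 and 1.07 times the sgTom partner, and Fosl1 was the only one of the 9 genes with the same direction in 3 of 3 pairs, where 28.8% of all tested genes had the same direction throughout. The log2 fold change was 0.05 (SE 0.195, limma adjusted p = 1), and with the replicate block its 95% interval ran from 0.978 to 1.09 in fold (limma adjusted p = 0.839).
Fosl2 (ENSMUSG00000029135.10, chr5:32135801-32157842, plus strand), which encodes the related Fra-2, had 248, 306 and 319 CPM in sgPVT1 MEFs and 254, 296 and 312 CPM in sgTom MEFs. Replicate 1 was the lowest under both guides, and the log2 fold change was 0.02 (SE 0.124).

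Jun (ENSMUSG00000052684.4, chr4:95049034-95052222, minus strand, 1 exon), the partner through which Fos binds DNA and a positive regulator of the cell cycle, was the steadiest of the 9 genes. It had 118, 128 and 120 CPM in sgPVT1 MEFs and 121, 122 and 118 CPM in sgTom MEFs, a highest value 1.09 times the lowest. The log2 fold change was 0.02 (SE 0.0555), and the 95% interval without a block was 0.924 to 1.11 in fold, the narrowest of the 9.
Junb (ENSMUSG00000052837.6, chr8:84974484-84978718, minus strand), which can restrain Jun, had 94.0, 140 and 112 CPM in sgPVT1 MEFs and 101, 121 and 110 CPM in sgTom MEFs. Replicate 2 was the highest and replicate 1 the lowest under both guides, and the log2 fold change was 0.05 (SE 0.151).
Jund (ENSMUSG00000071076.6, chr8:70698949-70700616, plus strand, 1 exon), a Jun gene expressed in resting cells, had 64.8, 82.3 and 64.6 CPM in sgPVT1 MEFs and 77.6, 64.2 and 57.9 CPM in sgTom MEFs. Its replicates did not follow each other between the guides, since the sgPVT1 library was lower in replicate 1 (0.835 times the sgTom partner) and higher in replicate 2 (1.28 times). The log2 fold change was 0.08 (SE 0.141), the largest of the 9 in size.

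Atf3 (ENSMUSG00000026628.13, chr1:191170296-191218039, minus strand), a stress-induced factor that pairs with Jun proteins and is also a known p53 target, had 16.1, 9.49 and 10.2 CPM in sgPVT1 MEFs and 13.4, 11.8 and 9.996 CPM in sgTom MEFs. Replicate 1 was the highest under both guides, by more in sgPVT1 MEFs. The log2 fold change was -0.01 (SE 0.214), with a 95% interval without a block of 0.697 to 1.42 in fold, the widest of the 9.
Egr1 (ENSMUSG00000038418.7, chromosome 18), a zinc finger factor outside AP-1 that is switched on by the same serum response factor pathway as Fos, had 196, 202 and 169 CPM in sgPVT1 MEFs and 254, 172 and 168 CPM in sgTom MEFs. The sgTom library of replicate 1 stood above the other 5, while replicate 3 was nearly equal between the guides at 1.01 times. The log2 fold change was -0.04 (SE 0.173), and 0.15 without sgTom replicate 1 (limma adjusted p = 0.999).

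Two-sided exact permutation tests over the libraries gave p = 0.5 for Jund, 0.7 for Fosl1, 0.9 for Fos, Fosl2, Jun, Junb and Egr1, and 1 for Fosb and Atf3, where 3 against 3 cannot go below 0.10. In the authors' deposited table, which gives 1 comparison of the guides, the p-values of the 9 genes ran from 0.60 for Jund to 0.979 for Fos, with a false discovery rate of 1 for each. The unblocked 95% intervals excluded a change of 1.5-fold in either direction for all 9 genes, as seen in the plot of guide effects. The sign of the fold change was not stable, since leaving out a library or a replicate number turned it for each of the 9. Leaving out 1 library without the block also unbalances the replicate numbers. With the block and a replicate number left out, the sign turned for every gene but Fosl1 (0.0186 to 0.0671 on the log2 scale).

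**Figure D3:**
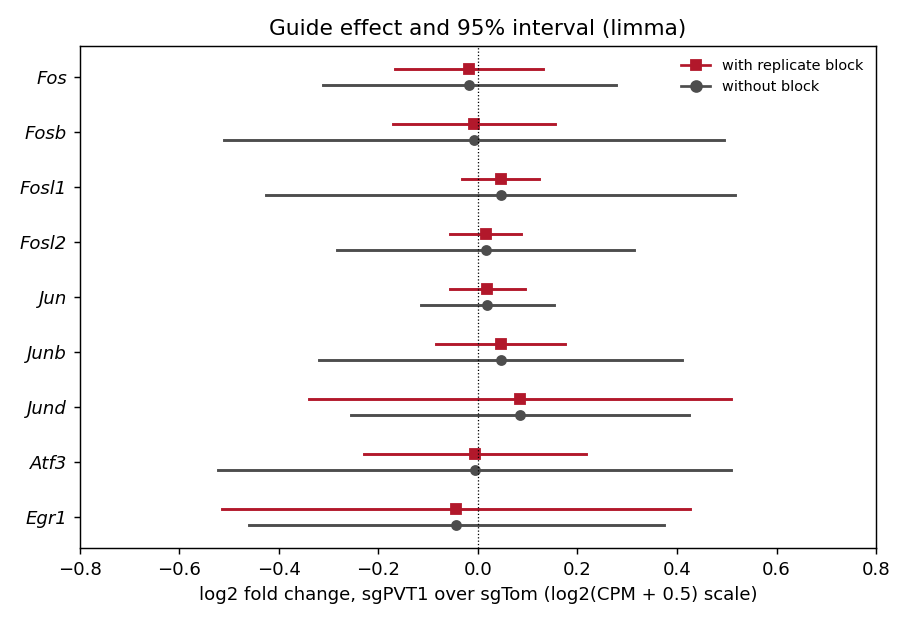
Points give the log2 fold change of sgPVT1 over sgTom for each gene and lines the 95% interval from limma, with the replicate block (red squares) above the fit without it (grey circles). All intervals include 0, and the block narrows those of Fosl1, Fosl2 and Fosb but not those of Jund and Egr1.

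More of the 9 genes differed between replicate numbers than between the guides. Levels differed between the 3 replicate numbers, 2 libraries each, for 6 of the 9 genes by the limma F test adjusted for the guide (Fos, Fosb, Fosl1, Fosl2, Junb and Atf3), where 48.6% of all tested genes differed, so such differences were common in these libraries. Replicate number held 39.7% to 98.4% of the variance of each gene over the 6 libraries, and the guide 0.0165% to 5.97%. Replicate number has 2 degrees of freedom and the guide 1, so its share tends to be larger even without an effect. For Jund, the gene at 39.7%, the residual was larger, at 54.4%. What else libraries of 1 number share is not given in the sources used here. The genes did not move as a group, as the plot of levels by replicate number shows: on the log2 scale, replicate 1 minus the mean of the other numbers was 0.43 for Fosl1 and 0.48 for Atf3, but -0.29 for Fosl2, -0.26 for Fosb and -0.30 for Junb.

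**Figure D4:**
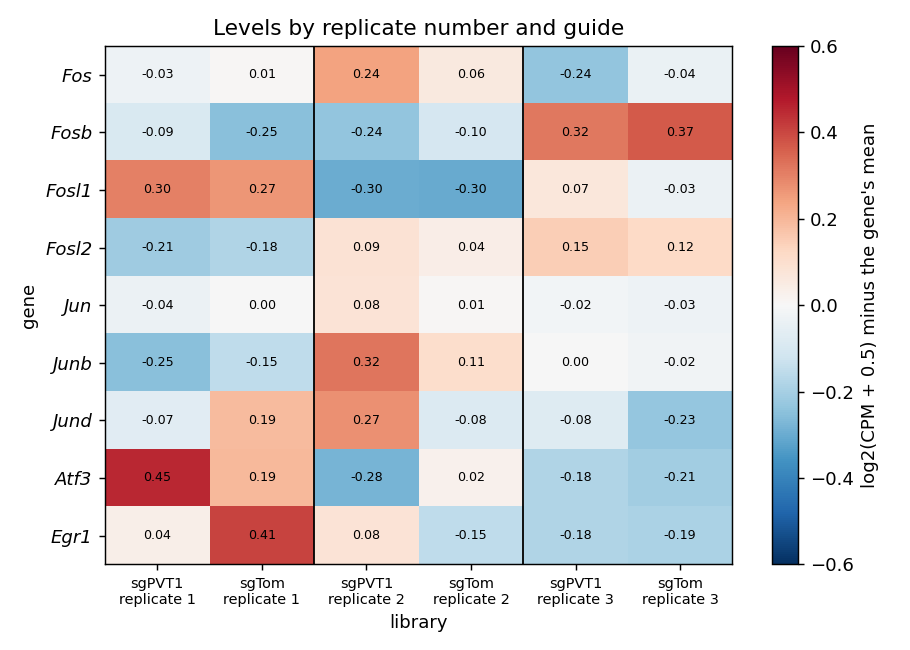
Colour and numbers give log2(CPM + 0.5) minus the gene's own mean over the 6 libraries, with genes in rows and libraries in columns ordered by replicate number, sgPVT1 left of sgTom in each. Fosl1 is 0.30 and 0.27 in replicate 1 and -0.30 in both libraries of replicate 2, while Fosl2 is lowest in replicate 1 and Fosb highest in replicate 3.

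Fosl1 and Fosl2, the most abundant Fos genes, differed in where replicate 1 stood, highest for Fosl1 and lowest for Fosl2, while replicate 3 was above replicate 2 for both. Fosl1 averaged 100 CPM over the guides in replicate 1, 66.8 in replicate 2 and 83.4 in replicate 3 (limma F test, adjusted p = 2.58e-06). Fosl2 averaged 251, 301 and 316 CPM in the same order (limma adjusted p = 9.66e-05). Fosl2 did not pass without replicate 1 (limma adjusted p = 0.255), so its call rested on that number. Fosb averaged 9.45, 9.47 and 13.7 CPM (limma adjusted p = 7.71e-04) and rested on replicate 3, without which the adjusted p from limma was 0.986. On the log2 scale, Fos showed the smallest such difference of those that passed, with averages of 32.7, 36.7 and 29.97 CPM (limma adjusted p = 0.0403). The Fos call was lost without replicate 3 (0.0799), with a filter at a mean of 5 CPM (0.0528), with DESeq2 (0.0502) and with limma without trend (0.176).

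Among Jun genes, only Junb passed, with 97.4, 130 and 111 CPM in replicates 1, 2 and 3 (limma adjusted p = 0.00423). Its call was lost with limma without trend (adjusted p = 0.0618). Jun averaged 119, 125 and 119 CPM (limma adjusted p = 0.306) and Jund 71.2, 73.3 and 61.2 CPM (limma adjusted p = 0.481). Jund did differ between replicates 2 and 3 when replicate 1 was left out (limma adjusted p = 8.82e-04). Atf3 averaged 14.7, 10.7 and 10.1 CPM (limma adjusted p = 0.0122), did not pass without replicate 1 (0.666) and was lost with limma without trend (0.0880). Egr1 averaged 225, 187 and 168 CPM (limma adjusted p = 0.296) and passed only without replicate 1 (0.0343). Without replicate 1, 2 or 3, the number of the 9 genes that passed was 6, 6 and 4, and limma without trend called 3, namely Fosb, Fosl1 and Fosl2. The share of all tested genes that passed was 21.2%, 48.7% and 34.9% without replicate 1, 2 or 3, and 29.97% by limma without trend. With a number left out, 1 residual degree of freedom remains.

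Replicate 1, in which Fosl1 and Atf3 were highest, also had the highest macrophage markers. The 13 listed markers summed to 366, 106 and 133 CPM in sgPVT1 libraries and 229, 113 and 131 CPM in sgTom libraries, in replicate order. Of these, 10 of the 13 differed between replicate numbers, against 48.6% of all tested genes. So did 6 of 9 fibroblast, 3 of 3 tested endothelial, 2 of 2 tested muscle, 1 of 2 tested epithelial and 3 of 4 tested neural and glial markers. Of the leading markers of these other types, Fn1, Kdr and Krt19 were also highest in replicate 1 under both guides. Des was highest in replicate 2 and Nes in replicate 3. Krt19 had 96.9, 51.4 and 90.9 CPM in sgPVT1 MEFs and 88.0, 71.1 and 86.1 CPM in sgTom MEFs, the replicate order of Fosl1. Adgre1, which encodes the macrophage marker F4/80, had 22.0, 3.89 and 4.96 CPM in sgPVT1 MEFs and 13.3, 3.92 and 5.07 CPM in sgTom MEFs. Egr1 was highest in sgTom replicate 1 (254 CPM). In sgPVT1 libraries Egr1 had 196, 202 and 169 CPM in replicate order, highest in replicate 2, where the macrophage markers were lowest. The part of macrophage RNA in the levels of Fosl1, Atf3 and Egr1 was not tested.

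Exons of neighbouring genes on the opposite strand overlap exons of 4 of the 9 genes in GENCODE M21. The strand setting of the authors' counting is not given in the sources used here, so reads from such overlaps may be split or set aside. Ccdc85b shares 1163 exonic bases with Fosl1 and had 13.6, 16.4 and 14.7 CPM in sgPVT1 MEFs and 18.3, 12.8 and 14.5 CPM in sgTom MEFs. Its replicate order was that of Fosl1 in sgTom MEFs, highest in 1 and lowest in 2, and the reverse in sgPVT1 MEFs. Prdx2, which encodes a peroxide-reducing enzyme, shares 173 bases with Junb and had 183, 252 and 242 CPM in sgPVT1 MEFs and 195, 253 and 241 CPM in sgTom MEFs, lowest in replicate 1 as Junb was. Gm11175 shares 877 bases with Jund and Junos 232 bases with Jun, but both antisense genes were low, at 0.251 and 1.58 CPM on average. The share of reads the authors left as ambiguous was 1.58%, 0.926% and 1.16% in sgPVT1 libraries and 0.543%, 0.784% and 1.36% in sgTom libraries, and its part in these levels was not tested.

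The wider pathway was followed in 6 lists, described by counts and medians beside those of all genes, as the plot of log2 fold changes by list shows. Other immediate early genes were all measured, with 22 of 34 higher, 12 lower and a median log2 fold change of 0.03. Limma called 0 of them without the block and 1 with it, Myc, which had 43.5, 48.6 and 53.8 CPM in sgPVT1 MEFs and 28.7, 27.0 and 35.6 CPM in sgTom MEFs (log2 fold change 0.67, blocked limma adjusted p = 5.49e-04). The blocked fit without trend called 0 genes, Myc included. Apart from Myc, those with the smallest blocked p were Klf2, a Krüppel-like factor (4.72 ± 1.13 CPM in sgPVT1 MEFs and 4.09 ± 1.30 CPM in sgTom MEFs, SD, n = 3 each; log2 fold change 0.20), Arc, best known from synapses (0.15), and Tiparp (-0.07), and these did not pass (blocked limma adjusted p = 0.738 to 0.748). Between replicate numbers, 27 of the 34 differed (48.6% of all tested genes), and without replicate 1, 2 or 3 the count was 20, 24 and 16 (21.2%, 48.7% and 34.9% of all tested genes).

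**Figure D5:**
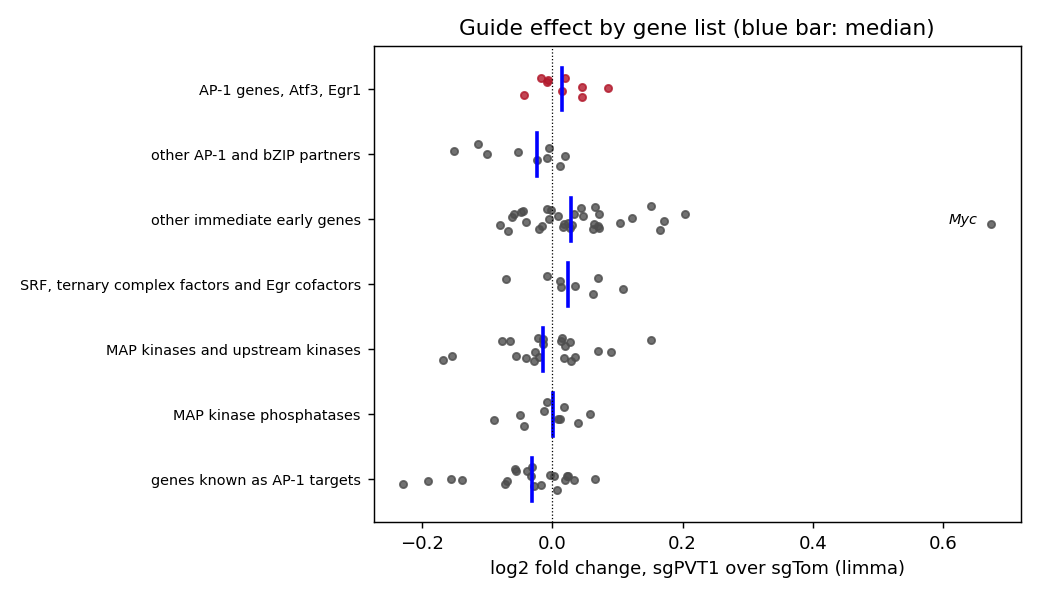
Dots give the log2 fold change of sgPVT1 over sgTom for each tested gene of a list, and blue bars the list's median. Medians lie between -0.03 and 0.03 in all 7 sets shown, and Myc, at 0.67, lies to the right of all others, the next being Klf2 at 0.20.

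The transcription factors that pair with AP-1 or control its genes gave no call. Of 12 other AP-1 and bZIP partners 9 were tested, with 2 higher, 7 lower and a median of -0.02. Among those with the smallest blocked p were Maff, a small Maf factor gene (-0.15, blocked limma adjusted p = 0.738), Jdp2, a repressor that pairs with Jun (-0.10, 0.753), and Creb5 (-0.05, 0.931). Of 8 genes of serum response factor, its cofactors and Egr cofactors, 6 lay higher and 2 lower (median 0.02). Srf itself had 56.2, 61.4 and 66.7 CPM in sgPVT1 MEFs and 47.6, 59.8 and 64.2 CPM in sgTom MEFs, with a log2 fold change of 0.11 (blocked limma adjusted p = 0.725). It was higher in sgPVT1 in 3 of 3 pairs, where 28.8% of all tested genes had the same direction throughout. Nab1, a corepressor of Egr1 (-0.07), Mkl2 (0.06) and Elk4 (0.07) did not pass either.

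Kinases and phosphatases upstream of AP-1 were balanced. Of 22 MAP kinase and upstream kinase genes, 10 lay higher and 12 lower (median -0.01), and Map2k1, which encodes the ERK kinase MEK1, had the smallest blocked p (115 ± 3.35 CPM in sgPVT1 MEFs and 120 ± 2.68 CPM in sgTom MEFs, SD, n = 3 each; -0.06, blocked limma adjusted p = 0.742). Mapk9 (-0.06), Map3k5 (-0.15) and Mapk7 (0.07) followed. Of 10 MAP kinase phosphatase genes, which switch these kinases off, 5 lay higher and 5 lower (median 0.0006), with Dusp7 (0.06), Dusp8 (0.04), Dusp16 (-0.04) and Dusp9 (-0.09) first by p. In neither fit, blocked or unblocked, did limma call a gene of either list.

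Genes known as AP-1 targets lay lower in 14 of 21 cases, with a median log2 fold change of -0.03, and limma called none in the blocked or the unblocked fit. The smallest blocked p were those of the matrix metalloproteinase genes Mmp13 (-0.19, blocked limma adjusted p = 0.538) and Mmp10 (-0.23, 0.570), of Hmox1, the heme oxygenase gene (-0.07, 0.738), and of Mmp3 (-0.14, 0.739). Mmp13 had 18.9, 50.0 and 53.7 CPM in sgPVT1 MEFs and 20.3, 60.0 and 61.9 CPM in sgTom MEFs. Mmp10 had 9.70, 36.2 and 30.4 CPM in sgPVT1 MEFs and 10.1, 45.5 and 37.6 CPM in sgTom MEFs. Both were lower in sgPVT1 in 3 of 3 pairs, where 28.8% of all tested genes had the same direction throughout. Genes picked by a small blocked p are also more likely to keep 1 direction. Both were lowest in replicate 1, the number in which Fosl1 was highest and Fosl2 lowest. Hmox1 was also lower in sgPVT1 in 3 of 3 pairs but highest in replicate 1, with 752, 511 and 429 CPM in sgPVT1 MEFs and 811, 543 and 435 CPM in sgTom MEFs. All 21 tested targets differed between replicate numbers in limma, against 48.6% of all genes, and without replicate 1, 2 or 3 the count was 19, 17 and 14, against 21.2%, 48.7% and 34.9% of all genes.

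Of the factors and regulators, 6 of 9 partner genes, 2 of 8 serum response factor and Egr cofactor genes, 10 of 22 kinase genes and 7 of 10 phosphatase genes differed between replicate numbers. Without replicate 1 these counts were 3, 0, 3 and 6, without replicate 2 they were 7, 4, 10 and 8, and without replicate 3 they were 6, 3, 7 and 3. The share of all tested genes was 48.6% with all replicates and 21.2%, 48.7% and 34.9% without replicate 1, 2 or 3, so the kinases lay near it with all replicates. Among these was Maff, at 70.6, 37.9 and 64.5 CPM in sgPVT1 MEFs and 79.7, 47.3 and 62.9 CPM in sgTom MEFs (limma adjusted p = 1.85e-04).

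Genes with profiles most like those of Fos, Jun, Atf3 and Egr1 were found by the root mean square difference of log2(CPM + 0.5), each gene centred on its own mean over the 6 libraries, among 10398 other genes with a mean of at least 5 CPM. Nearest to Fos were Znhit3, Snx14 and Iqcc (0.0426 to 0.0454, where Fos itself varied by 0.141). Nearest to Jun were Apex1, Ccnd2 and Clns1a (0.00639 to 0.0118, own variation 0.0394). Nearest to Atf3 were Sync, Ifi30 and Prkaa2 (0.0640 to 0.0771, own variation 0.257), of which Ifi30 had 157, 106 and 107 CPM in sgPVT1 MEFs and 150, 117 and 110 CPM in sgTom MEFs. Nearest to Egr1 were Ankzf1, Fbxo31 and Fam172a (0.0454 to 0.0563, own variation 0.210). Fbxo31 had 11.8, 12.2 and 10.3 CPM in sgPVT1 MEFs and 14.5, 10.8 and 10.1 CPM in sgTom MEFs. Its peak in sgTom replicate 1, shared with Egr1, follows from the choice of genes by likeness over these libraries. None of the 9 genes was among these neighbours.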

How the data were processed

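Polyadenylated RNA was sequenced with a stranded kit, per the labels' protocols. The submitters' processing notes name mm10 and edgeR 3.22.3, HTSeq 0.6.1, TopHat2 2.0.14 and StringTie 1.2.4, without roles or strand setting. The CPM values were deposited by the authors, made with edgeR per the file headers, and the deposited log2 fold changes and p-values with false discovery rates came from the same table. The 6 per-sample columns of pseudo-counts were not used. Of 16427 entries, 2 (reads ambiguous or outside genes) were removed, and they stay in the CPM divisor. Reads outside genes were 8.41% to 8.94% in sgPVT1 libraries and 8.06% to 8.33% in sgTom libraries. Dividing by the worth of 1 read per library gave whole reads within 0.01 for 100% of the values. That worth was read from the steps between low values of each library.

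Tests used limma 3.58.1 (robust empirical Bayes, with a mean-variance trend) on log2(CPM + 0.5). A gene needed 0.5 CPM or more in 3 or more libraries, which 14440 did, and p-values were adjusted by Benjamini-Hochberg over all of them at 0.05. All 9 members passed this filter. Fold changes are sgPVT1 over sgTom on that scale, which understates changes of low genes. Replicate numbers differed by the F test of the fit with guide and number. Deviations from group means correlated across genes at 0.869, 0.739 and 0.817 for equal numbers and at most at 0.203 otherwise, so the numbers pair the libraries. Alternatives were the replicate block, other normalizations, filters and pseudocounts, edgeR 4.0.16 and DESeq2 1.42.0 on recovered reads, and each library left out. Scripts were tested on simulated data.

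Members and lists were chosen with earlier results of these data known. Named genes are the members, Pvt1, up to 4 genes per list with the smallest blocked p, the leading marker per cell type and 3 genes nearest in profile to Fos, Jun, Atf3 and Egr1. A gene that this rule names among the partners is not reported here. Adgre1, Ifi30, Fbxo31 and the neighbouring genes were given values after these were seen. Lengths (the union of a gene's annotated exons) and positions come from GENCODE M21 (mm10).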

Additional observations from a re-analysis of the deposited data

How the results depend on the processing

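None of the 9 genes passed for the guide under any alternative run. The nearest was Jund with the block and without replicate 1 (log2 fold change 0.256, limma adjusted p = 0.0633, 1 residual degree of freedom). In that fit 3 of the 9 genes and 976 of all 14440 had an unadjusted p under 0.05. Without replicate 2 or 3 it was 1 and 0 of the 9, and 1570 and 679 of all genes. With the replicate block 5 genes of the table passed (0 without it), the block changed no call among the 9, and the count was 4 with the block and a pseudocount of 1, 5 with the block and edgeR or no filter, 6 with the block and DESeq2, 0 with the block and limma without trend, and 1 with DESeq2 alone. Leaving out single libraries kept it at 0, and leaving out a replicate number with the block gave 8 to 160. Atf3 turned to a log2 fold change of 0.0208 with edgeR and 0.0209 with DESeq2. With 1 library left out, log2 fold changes ranged from -0.141 to 0.0966 for Fos, -0.168 to 0.173 for Fosb, -0.0936 to 0.206 for Fosl1, -0.0698 to 0.126 for Fosl2, -0.0171 to 0.042 for Jun, -0.104 to 0.182 for Junb, -0.0304 to 0.2 for Jund, -0.233 to 0.131 for Atf3 and -0.149 to 0.149 for Egr1. With the block and 1 replicate number left out, they ranged from -0.115 to 0.0717 for Fos, -0.0918 to 0.0548 for Fosb, 0.0186 to 0.0671 for Fosl1, -0.00222 to 0.0409 for Fosl2, -0.00847 to 0.0446 for Jun, -0.0392 to 0.117 for Junb, -0.0513 to 0.256 for Jund, -0.138 to 0.141 for Atf3 and -0.181 to 0.121 for Egr1. Fosb reached 0.0136 with the block and without replicate 3. Between replicate numbers, 7022 genes differed, 4328 by limma without trend, 4662 at a threshold of 0.01 and 3068 to 7027 without a number. Of the 9 genes 6 differed, 3 by limma without trend and 4 to 6 without a number. The causes were not tested. Depth (503 reads or more per gene and library) limits counting error to 4.46%.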
